A study of Mus musculus with 22 samples.

Results

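Whole-genome bisulphite sequencing of E18.5 liver compared 2 wild-type livers with 2 livers homozygous for the RlfMommeD28 allele, all labelled female. They are 4 of the 22 samples of the series. Methylation was compared in 673602 tiles of 1 kb on chromosomes 1 to 19, each with at least 8 CpGs that had 6 or more reads in all 4 livers. Rlf encodes a protein with widely spaced zinc fingers, and MommeD28 is a null allele from a dominant ENU mutagenesis screen, bred into the FVB/NJ Line3 strain. All animals, wild types included, carried the Line3 reporter, a multi-copy GFP transgene in homozygous form, driven in erythroid cells by a human alpha-globin promoter with the HS-40 element. The embryos came from matings between heterozygotes, and homozygotes die around birth. Used beside them were 2 wild-type and 2 homozygous E14.5 livers (1 male and 1 female of each genotype), 2 wild-type and 2 homozygous male E10.5 whole embryos, and RNA-seq of E14.5 liver with 3 samples of each genotype. RNA of E18.5 liver was not analysed here. The E14.5 livers used for methylation were littermates. Whether the E18.5 livers of a genotype came from separate litters is not given in the sources used here. P-values therefore measure only the spread between these samples. In the edgeR test on tiles that spread is largely shared over all tiles, so a tile's own replicates weigh little in its p.

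Bisulphite converts unmethylated cytosines, so the percent of reads at a CpG that still carry a cytosine gives its methylation level. Most CpGs of mammalian DNA are methylated. The exceptions are largely CpG islands at promoters, which are hardly methylated, and distal elements such as enhancers, where bound transcription factors go with low to intermediate levels. The fetal liver is first a blood-forming organ with many erythroid cells and turns into a largely hepatocyte tissue as birth nears.

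Stretches of 200 bases are printed for the 3 regions with the largest gains of methylation in the mutants, for the gaining tiles at Apoc1 and Dppa3, which the later results come back to, and for the region with the largest loss. They are the plus strand of NCBIM37 (mm9). Capitals mark CpGs at which both mutants lay beyond both wild types with a mean difference over 15 points.

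Map3k1, upstream, chr13:112685065-112685264: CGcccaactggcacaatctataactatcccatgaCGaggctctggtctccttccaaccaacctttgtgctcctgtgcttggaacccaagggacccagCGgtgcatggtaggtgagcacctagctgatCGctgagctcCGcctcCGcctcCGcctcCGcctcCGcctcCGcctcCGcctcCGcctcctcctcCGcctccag

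Kif21a, upstream, chr15:90936529-90936728: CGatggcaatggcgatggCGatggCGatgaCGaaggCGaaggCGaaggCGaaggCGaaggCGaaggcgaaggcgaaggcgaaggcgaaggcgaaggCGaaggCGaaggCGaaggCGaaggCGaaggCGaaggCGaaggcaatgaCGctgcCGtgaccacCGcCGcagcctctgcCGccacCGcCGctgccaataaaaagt

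4921513I03Rik, upstream, chr10:120131603-120131802: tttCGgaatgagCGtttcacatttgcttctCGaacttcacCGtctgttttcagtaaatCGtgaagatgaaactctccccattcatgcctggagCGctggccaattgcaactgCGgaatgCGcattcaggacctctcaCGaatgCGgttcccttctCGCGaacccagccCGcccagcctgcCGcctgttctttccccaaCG

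Apoc1, coding exon and intron, chr7:20277177-20277376: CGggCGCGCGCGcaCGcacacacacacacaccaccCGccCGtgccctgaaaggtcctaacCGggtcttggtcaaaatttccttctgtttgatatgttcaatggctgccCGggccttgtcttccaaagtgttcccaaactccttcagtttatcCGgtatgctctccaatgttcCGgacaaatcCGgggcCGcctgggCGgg

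Dppa3, intron 1, chr6:122577589-122577788: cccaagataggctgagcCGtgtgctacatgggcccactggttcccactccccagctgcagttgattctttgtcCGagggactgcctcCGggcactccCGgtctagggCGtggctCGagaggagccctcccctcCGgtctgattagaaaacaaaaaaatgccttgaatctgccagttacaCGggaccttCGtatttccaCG

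1700018B24Rik, upstream, a loss, chr3:48866193-48866392: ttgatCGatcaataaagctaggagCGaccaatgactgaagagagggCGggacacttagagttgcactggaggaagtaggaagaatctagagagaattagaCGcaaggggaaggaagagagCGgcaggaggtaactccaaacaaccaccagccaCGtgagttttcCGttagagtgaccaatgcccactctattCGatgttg

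All 13 CpGs of the Map3k1 stretch are in capitals, and their mean level was 7.76% in wild types and 62.2% in mutants. Most of them lie in a tandem repeat of a short unit near the end of the stretch. In the Kif21a stretch, a tandem repeat of short units for much of its length, 23 of 29 CpGs had enough reads, and all of these are in capitals, with means of 27.9% and 76.1%. The 15 CpGs near 4921513I03Rik averaged 23.4% and 68.4%, those of Apoc1 57.1% and 84.7%, and those of Dppa3 13.3% and 65%. In the stretch with a loss the means were 69.5% and 45.2%. There 9 CpGs were measured, while the printed reference sequence holds 8. The stretches were chosen for their change, so these levels are a description.

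In RNA of wild-type E14.5 liver the hepatocyte markers Alb and Afp were at 26652 and 29804 CPM (counts scaled to library size) and the erythroid marker Slc4a1 at 5106 CPM. The 4 E18.5 livers had similar depth, with 16.5 to 17.0 reads per reference CpG and 76.6% to 80.6% of the reference CpGs at 6 or more reads. Of the reads on unmethylated lambda DNA, 0.0433% to 0.0587% were unconverted. Mutant 1 stood apart from the other livers: its median tile lay 3.87 points above the mean of the wild types, against 0.341 points for mutant 2. The allele came from ENU, so Rlf RNA does not check the labels. Its level in E14.5 liver was 68.9 to 72.3 CPM in wild types and 67.6 to 79.8 CPM in mutants (edgeR quasi-likelihood test, log2 fold change 0.08, adjusted p = 0.65).

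Over all autosomal CpGs the mean was higher in the mutants, by less than the gap between the 2 mutants. Over the reads at 14377963 CpGs methylation was 60.96% and 61.27% in the wild types and 65.03% and 61.05% in the mutants. Mutant 1 was the highest, while mutant 2 lay between the wild types. The difference of 1.92 points had a two-sided exact permutation p of 0.67, where 2 against 2 livers cannot give less than 0.33, and it was -0.0672 points without mutant 1. With each CpG counted once, whatever its reads, the wild types were at 62.66% and 63.09% and the mutants at 66.74% and 63.29%, both above the wild types (2.14 points, exact permutation p = 0.33, the smallest possible). Tiles that overlapped a CpG island differed by 0.926 points. Those in shores (up to 2 kb from an island) differed by 2.42 points and those in shelves (up to 4 kb) by 2.33 points. In each class mutant 1 was furthest above the wild types.

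The reporter transgene was more methylated in both mutants. Over its 205 CpGs the level was 10.297% and 10.495% in the wild types and 26% and 24.9% in the mutants, a difference of 15.1 points that far exceeded the gap between replicates (two-sided exact permutation p = 0.33, the smallest possible). At 182 of these CpGs both mutants lay above both wild types, which held at 19.7% of all autosomal CpGs. The transgene differed by 12.3 points in E14.5 liver and by 13.1 points in E10.5 embryos. Its copies cannot be told apart in the counts, and each CpG pools their reads. Depth was not matched to that of autosomal CpGs, so the 19.7% is not a matched background.

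At single loci nearly all changes were gains of methylation in the mutants. A tile was called where the edgeR quasi-likelihood test on methylated and unmethylated reads gave a Benjamini-Hochberg adjusted p under 0.05 and the group means differed by over 15 points. Of the 673602 tiles, 889 (0.132%) gained methylation in the mutants and 20 (0.00297%) lost it. Both mutants lay above both wild types at 888 of the 889 gaining tiles, and below them at all 20 losing tiles. Over all tiles, both mutants lay above both wild types at 31%. The calls used this contrast, so the levels of the called tiles are a description: gaining tiles averaged 38.5% and 37.8% in the wild types and 60.6% and 57.8% in the mutants, and losing tiles 66.1% and 64.7% against 46.8% and 43.8%.

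Each mutant's part in the gains was looked at next. The calls used the mean of both mutants, so the levels in each are a description. The median gaining tile was 21.5 points above the wild-type mean in mutant 1 and 18.8 points above it in mutant 2. All 889 were higher in each, by over 15 points at 849 in mutant 1 and at 709 in mutant 2. Fits that leave out a liver called tiles outside the 889 and missed some of the 889. Without mutant 1, 804 gains and 134 losses were called, and without mutant 2, 6308 gains and 85 losses. Without wild-type 1 the counts were 165 and 1, and without wild-type 2 they were 121 and 3, where a lone liver was assumed to vary like the others. With each liver centred on its genome-wide level, which moves the median tile by 2.05 points, 473 gains and 64 losses were called, so that 88.1% in place of 97.8% of the calls were gains. Limma on logit levels called 59 gains and 0 losses (45324 tiles with an unadjusted p under 0.05), and all 59 were among the 889.

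**Figure D1:**
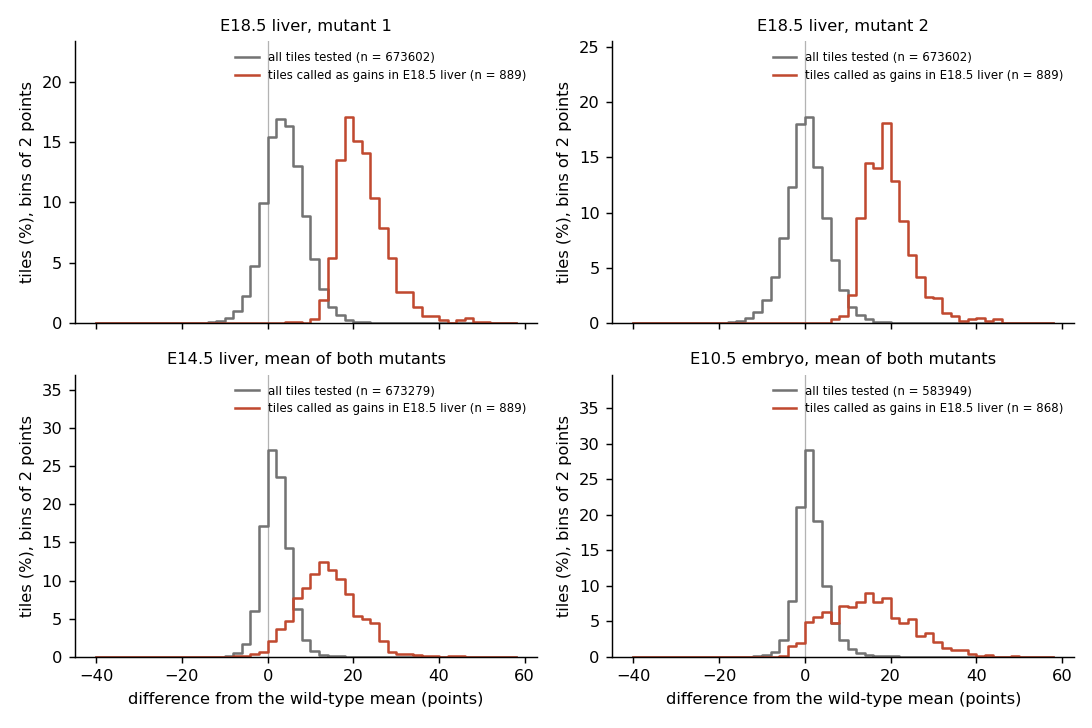
Difference of each mutant, or of the mutant mean, from the wild-type mean of the same dataset, in points of methylation (x axis), against the percent of tiles per bin of 2 points (y axis). Gray lines are all tiles and red lines the 889 tiles that gained methylation in E18.5 liver, whose medians are 21.5 points in mutant 1, 18.8 in mutant 2, 13.7 in E14.5 liver and 14.6 in E10.5 embryos.

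At the edge of the rule, the smallest gain called was near Gm7334, from 4.83% to 19.8%, and a tile near Gm9843 at 13.0% and 28.0% fell just short of 15 points. The largest adjusted p called was 0.0497, near Camk2b, and the smallest not called was 0.0501, near Boll, at differences of 16.2 and 16.3 points (edgeR). A further 2152 tiles were over 15 points higher and 105 over 15 points lower in the mutants without passing the test.

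Gains fell on tiles that were partly methylated in wild type. To keep the measure apart from the contrast, the wild-type level was taken from E14.5 liver. The share of tiles called as gains was 1.54% at levels of 10 to 20%, 1.53% at 20 to 30% and 1.04% at 30 to 40%. It was 0.1% below 10%, 0.0281% at 60 to 70% and 0.00299% at 80 to 90%, where little room is left for a gain of 15 points. The median gaining tile was at 34.5% in wild-type E14.5 liver (quartiles 22.1% and 49.5%), against 66.0% for all tiles.

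Gaining tiles were also rich in CpGs. They had a median of 22 reference CpGs per kb, against 13 for all tiles, and 49.5% GC against 46.4%. The share called was 0.0205% of tiles with 8 to 10 CpGs, 0.45% with 21 to 30, 0.787% with 31 to 40 and 0.339% with over 60, most of which were unmethylated. Among tiles of 10 to 50% in wild-type E14.5 liver (650 gains in 74966 tiles, 0.867%), it went up with each class, from 0.098% through 2.21% with 21 to 30 CpGs to 10.7% with over 60. Tiles with more CpGs hold more reads, and within this range they tended to be less methylated. Their median wild-type E18.5 level was 49.7% with 8 to 10 CpGs and 21.8% with over 60. The part of reads or level in the trend was not tested. Reads per CpG were alike, at a median of 22.4 to 23.5 in gaining tiles and 21.4 to 22 in all tiles.

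**Figure D2:**
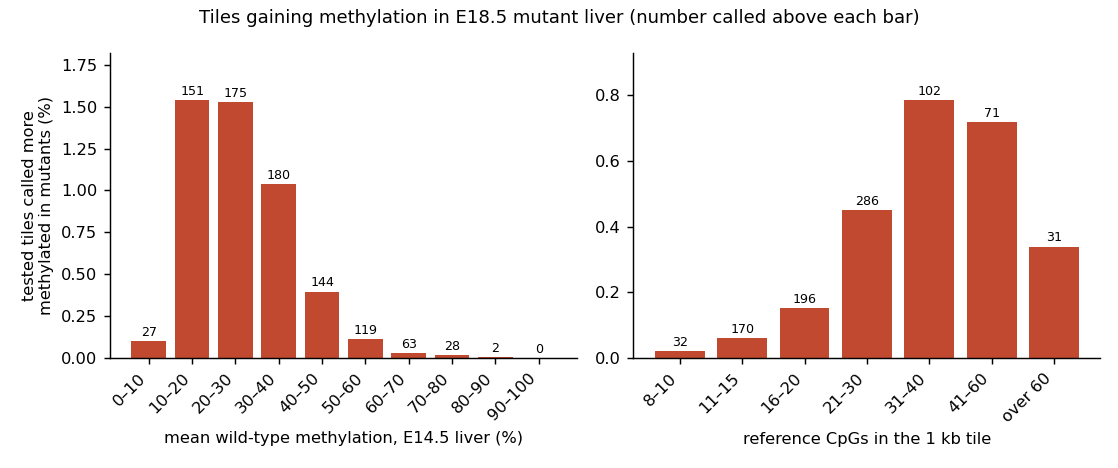
Percent of tested tiles called as more methylated in mutant E18.5 liver (y axes), by wild-type level of the tile in E14.5 liver (left) and by reference CpGs per tile (right), with the number called above each bar. The share peaks at 1.54% for levels of 10 to 20% and at 0.787% for 31 to 40 CpGs.

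By place, 206 gains overlapped CpG islands (0.582% of island tiles), 82 lay in shores (0.252%), 36 in shelves (0.13%) and 565 elsewhere (0.0977%). Islands here are windows of 500 bp with at least 55% GC and an observed to expected CpG ratio of at least 0.65. A tile that overlapped an island by any length counted as an island tile, so island edges are counted there and not in shores. Among tiles of 10 to 50% in wild-type E14.5 liver the shares were 2.28%, 0.969%, 0.779% and 0.667% in that order. By the feature at the tile's centre, 493 gains lay between genes (0.16% of such tiles) and 242 in introns (0.0787%). Exons held 96 (0.272%), and 58 were at a transcription start site (TSS, 0.255%). Within the same range of wild-type levels, exons had the highest share at 2.92%, followed by 1.39% at a TSS, 0.905% between genes and 0.564% in introns. Levels were not matched within the range. There the median wild-type E18.5 level was 22.5% on islands and 46.2% outside islands, shores and shelves. By feature it was 41.1% in exons, 26.3% at a TSS, 44.8% between genes and 44.3% in introns. Every autosome held gains, from 17 tiles on chromosome 16 to 86 on chromosome 5. Within 5 Mb of Rlf on chromosome 4, 8 of 4316 tiles gained (0.185%), against 43 of 39974 (0.108%) on the rest of that chromosome.

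Averaged over the regions, the gains were short, as the levels around their centres below show. Called tiles at most 1 kb apart formed 786 gain regions, of which 697 were 1 tile and 403 lay in a gene, and 19 loss regions, of which 13 lay in a gene. By their centres, 45.7% of all tiles lay between genes, and nothing is read from the counts of regions in genes. The regions were called on these livers, so the levels of their CpGs are again a description. Of the 20034 CpGs in gain regions 95% were higher in the mutants and 75.9% had both mutants above both wild types. Over all autosomal CpGs these shares were 55.0% and 19.7%, and nothing is read from the gap. Around the region centres the wild types formed a dip, while the mutants stood above their own near flanks. The mutant mean was 56.9% in the 250 bp after the centre. It was 49% and 41.6% in the bins centred 1125 bp before and after the region centre. In the 250 bp after the centre the level was 35.4% and 34.2% in the wild types and 58.5% and 55.3% in the mutants, a difference of 22.1 points. At 5 kb before the centre it was 60.5% and 60.6% against 65.5% and 60.9%, a difference of 2.61 points, with only mutant 1 well above the wild types. E14.5 livers differed by 16.2 points at the centre and 3.41 points at that end, and E10.5 embryos by 18.6 and 3.36 points.

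**Figure D3:**
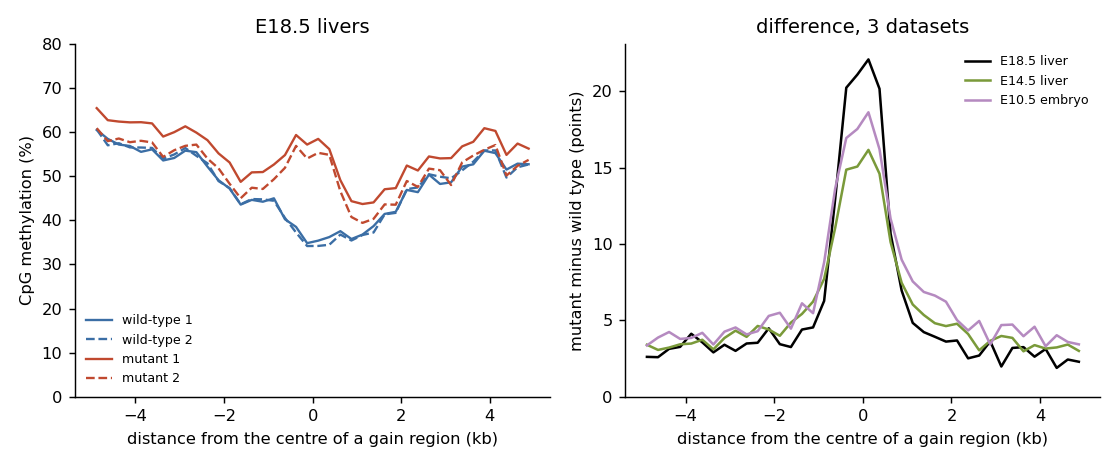
Mean CpG methylation in bins of 250 bp (y axis, percent) by plus-strand distance from the centres of the 786 gain regions (x axis). Left, each E18.5 liver (blue wild type, red mutant, dashed for replicate 2), with the wild types near 35% at the centre; right, mutant minus wild-type difference in points for the 3 datasets, which peaks at the centre at 22.1, 16.2 and 18.6 points.

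By the mean over the CpGs of each region, the largest gain lay between genes on chromosome 13 (112685001 to 112686000), 86.3 kb upstream of Map3k1, which encodes a kinase upstream of JNK. Its 17 CpGs were at 17.5% and 16.6% in the wild types and 63.6% and 62.1% in the mutants, so replicates lay close together and the genotypes far apart (difference 45.9 points, edgeR adjusted p = 7.47e-18). In E14.5 liver the tile was at 14.9% ± 1.74 in wild types and 44.3% ± 5.46 in mutants, and in E10.5 embryos at 43% ± 6.73 and 63.4% ± 6.29 (SD, n = 2 each). Second came a tile on chromosome 15 (90936001 to 90937000), 56.1 kb upstream of the kinesin gene Kif21a, at 37% and 26% in the wild types and 82.8% and 71.5% in the mutants. Its replicates lay further apart, without overlap of the genotypes, which the choice of regions required. The third, on chromosome 10 (120131001 to 120132000) and 71.3 kb upstream of 4921513I03Rik, was at 23% and 25.4% against 70.3% and 69%. There the differences were alike at the 3 stages, at 45.5 points in E18.5 liver, 44.5 in E14.5 liver and 49.5 in E10.5 embryos. Of single tiles, 1 of the 2 that make up a region near Gm10797 had a larger difference than these, 46.2 points, while its whole region differed by 39 points.

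Several large gains lay within genes. A CpG island in exon 2 of 2 of Basp1, the gene of a membrane protein of growing axons, was called over 2 kb of chromosome 15 (25293001 to 25295000). Its 107 CpGs were at 42.4% and 37% in the wild types and 84.9% and 81.1% in the mutants, and at 101 of them both mutants lay above both wild types. The difference was 36.1 points in E14.5 liver and 42.7 points in E10.5 embryos, where wild types were lower, at 20.8% and 19.7%. A tile at exon 16 of 16 of Padi1, which encodes an enzyme that turns arginine of proteins into citrulline, also holds an exon of the lincRNA Gm13032 and is 3.94 kb upstream of Padi3. It was at 33.7% and 33.5% in the wild types and 77.9% and 75.1% in the mutants, with replicates within a few points of each other. A tile in the last intron of Aox3, an aldehyde oxidase gene, had 9 CpGs at 26.8% and 13.2% against 53.1% and 58.8%. It passed the test with all livers (edgeR adjusted p = 2.06e-07) but not without wild-type 2 (adjusted p = 0.238).

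The other regions of the 15 largest gains lay near genes of varied roles. Near Dusp6, the gene of an ERK phosphatase, 26 CpGs were at 16.3% and 20.1% against 53.9% and 51.1%. A tile 115 kb upstream of Has2, a hyaluronan synthase gene, was at 19.5% and 19.2% against 60.3% and 49.1%. A tile 99.3 kb from the Krüppel-like factor gene Klf13 was at 33.8% and 37.8% against 70.9% and 76.3%. In all of these the lower mutant was well above the higher wild type. Only regions without overlap were taken, so this is a description. Those near 1700020O03Rik, Mgat5b, Gm10797, Mrpl15, Nudt4 and Slc28a3 gained 33.7 to 43 points. Of the 15, 14 lay over 10 kb from the nearest protein-coding TSS and 3 on an island. The median over all tiles was 26.5 kb, so most tiles also lay over 10 kb away, and 5.26% of all tiles lay on islands. The differences of the 15 regions were 19.3 to 44.5 points in E14.5 liver and 14.1 to 49.5 points in E10.5 embryos. RNA of 10 of the nearest genes was tested in E14.5 liver, without the replicate number as a block. The smallest adjusted p was 0.0687, for Dusp6 (edgeR, log2 fold change 0.37 ± 0.09 SE).

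**Figure D4:**
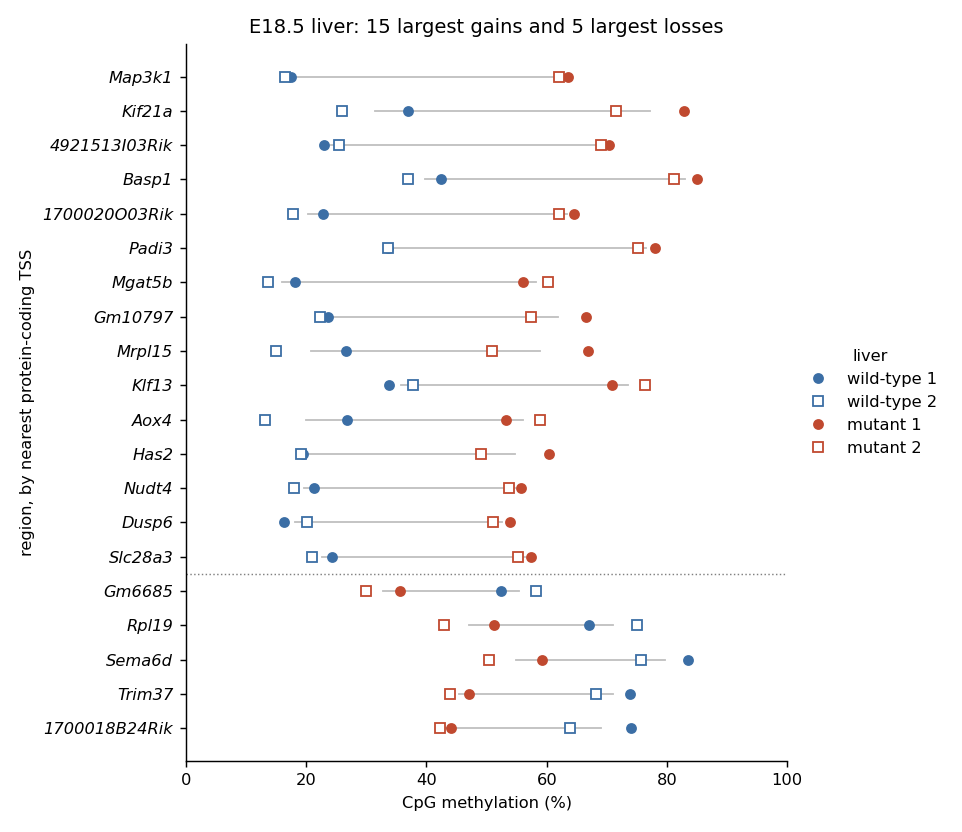
Methylation (x axis, percent) in each E18.5 liver at the 15 regions with the largest gain and, below the dotted line, the 5 with the largest loss, named by the nearest protein-coding TSS. Blue is wild type and red mutant, filled circles are replicate 1 and open squares replicate 2, and gray lines join genotype means. Both mutants lie right of both wild types at the 15 gains and left of them at the 5 losses, as regions without overlap were chosen.

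The widest gain spanned 6000 bp of chromosome 6 (136416001 to 136422000), 19.7 kb from Gm6728. Its 84 CpGs were at 33.6% and 35.5% against 59.4% and 54.3%. The next widest spanned 5000 bp of chromosome 8 (74213001 to 74218000) and took in the last exon of the cytokine receptor kinase gene Jak3, the Leydig cell hormone gene Insl3 and the end of the glycosyltransferase gene B3gnt3. Over its 197 CpGs the levels were 18.4% and 15.7% against 40.01% and 38.5%, and 167 CpGs had both mutants above both wild types.

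The losses were few. By the mean over each region the largest, on chromosome 3 (48866001 to 48867000) and 453 kb from 1700018B24Rik, was at 74.1% and 63.8% against 44.1% and 42.3%. The mutant minus wild-type difference there was -11.9 points in E14.5 liver and -21.1 points in E10.5 embryos. Exon 23 of 24 of the ubiquitin ligase gene Trim37 was at 73.8% and 68.2% against 47.1% and 43.8%, with -9.59 points in E14.5 liver and 0.0561 points in E10.5 embryos. A tile at exons 2 to 3 of the ribosomal protein gene Rpl19 was at 67% and 75% against 51.2% and 42.9%, and 7 of its 13 CpGs had both mutants below both wild types. The differences near Sema6d and Gm6685 were -24.7 and -22.5 points. All 5 passed the test with all livers. None of them passed without wild-type 1, and only that near Sema6d passed without wild-type 2 (edgeR adjusted p of 0.0591 to 1 in the fits that they did not pass). On leaving out wild-type 1 or wild-type 2 their differences were -19.6 to -30.9 points. Of the 889 gains, 158 were also called without wild-type 1 and 118 without wild-type 2. Of single tiles the largest loss, -28.9 points, was in intron 9 of 14 of Pigk, which encodes a part of the enzyme that attaches GPI anchors, in a region of 2 tiles at 51.1% and 44.4% against 27.6% and 27.6%, named here after its values were seen.

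Of the called tiles, 140 had an edge within 1 kb of a protein-coding TSS, 136 with a gain. Measured from the tile's centre, 95 gains were within 1 kb, which is 0.241% of the tiles there, against 0.132% of all tiles. The largest of these gains was in intron 1 of Dppa3, a factor of germ cells and the early embryo, on chromosome 6 (122577001 to 122578000), at 29.5% and 30.7% in the wild types and 68.5% and 70.8% in the mutants. All 27 CpGs had both mutants above both wild types (edgeR adjusted p = 8.18e-16). At the start of 4931440F15Rik, a gene within an intron of Eml6, the level was 20.6% and 26.5% against 57% and 52.6%. The gene of the testis linker histone, Hist1h1t, was at 24.3% and 30.7% against 59.5% and 55.9%. Exon 1 of the proton channel gene Otop3 was at 31.2% and 26.1% against 58.2% and 59.6%, and exon 1 of the interferon-induced gene Oas1g at 26.6% and 17.7% against 56.3% and 47.9%. None of these tiles was free of methylation in wild type. Tiles at Ddah1 and Foxi2 each gained 29.6 points. The tile of Rps2-ps5, whose name marks a pseudogene copy that may share reads with others, was at 50.3% and 67.5% against 91.8% and 86.2% on 11.5 to 14.9 reads per CpG. In the other datasets the 8 tiles were 16.7 to 29 points higher in mutant E14.5 livers and 4.79 to 34.4 points higher in mutant E10.5 embryos.

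The gaining tiles were higher in mutants of the other stages too, whose samples played no part in the calls. In E14.5 liver both mutants lay above both wild types at 825 of the 889 (92.8%), against 34.5% of all tiles, and below them at 2. Mean levels over the 889 tiles were 36% and 37% in the wild types and 51.2% and 49.9% in the mutants, and the median difference was 13.7 points, against 1.81 for all tiles. In E10.5 embryos 868 of the tiles were measured, and at 744 (85.7%), against 31.5% of all tiles, both mutants lay above both wild types. Mean levels were 48% and 52.9% against 65.6% and 65%, and the median difference was 14.6 points, against 1.14 for all tiles. Both datasets showed this at 715 of the 868, compared with 12.9% of all tiles. Called on their own samples by the same rule, E14.5 liver had 1049 gains (0.156%), 385 of them among the 889, which is 43.3% of the E18.5 calls and 36.7% of the E14.5 calls. E10.5 embryos had 2177 (0.379%), 400 of them shared, or 45% and 18.4%.

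The 20 losing tiles were looked at in the same samples. Both mutants lay below both wild types at 14 of 20 in E14.5 liver, against 6.14% of all tiles, and at 7 of 20 in E10.5 embryos, against 9.28%. The median differences were -6.59 and -0.775 points.

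An interaction of genotype and stage asked where the difference itself differed. Against E14.5 liver 3 of 672782 tiles had an adjusted p under 0.05 (edgeR, 21649 at an unadjusted p under 0.05), and 1 of these had a difference of differences over 15 points (0.000149%). It lay in intron 7 of Wdr63, a gene of cilia, on chromosome 3 (145747001 to 145748000). E18.5 levels were 97.1% and 94.3% against 76.1% and 85% on 9 to 17.5 reads per CpG, and E14.5 levels 90.8% and 86.9% against 94.7% and 97.7%. With the E14.5 counts thinned to the depth of the E18.5 livers this call was lost and no tile passed (edgeR, 20564 of 647491 at an unadjusted p under 0.05). Against E10.5 embryos 2 of 575023 tiles passed (0.000348%), at exon 1 of Tmem69 and near Fzd9. The 4 largest interactions in each direction against E14.5 liver, near Gm17356, Prkcq, Tiam1, Gm11565, Cdh7, Fam86, Commd10 and Sox5, ran from -29.3 to 29.5 points with adjusted p of 0.159 to 1 (edgeR). Stage and cell content cannot be told apart in these comparisons. Sex differed too, as 1 E14.5 liver of each genotype was male and all E18.5 livers were female. With the male E10.5 embryos, tissue and sex cannot be told apart from stage either.

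Genes of liver and blood cells were looked at by list. Counting tiles in a gene or within 5 kb of it, beside the 0.132% of all tiles, 3 of 643 tiles at hepatocyte transcription factor genes gained (0.467%). Of these 2 were at Hnf4g, the larger at 11.4% and 11.5% against 33% and 33.8%, and 1 at exon 1 of Hhex, a homeobox gene needed for liver budding, at 27.4% and 27.4% against 50.2% and 46.1%. Of 475 tiles at genes of plasma proteins and liver enzymes 1 gained (0.211%), the Apoc1 tile described below. None was called of 436 tiles at cytochrome P450 genes (30 higher and 4 lower at an unadjusted p under 0.05 by edgeR). Likewise none was called of 1113 tiles at blood lineage transcription factor genes (103 higher and 12 lower), of 449 at erythroid genes (20 and 11), or of 507 at genes of DNA methylation and demethylation enzymes (31 and 4). Over all 673602 tiles these counts were 46568 higher and 4001 lower, and 22296 and 23694 with each liver centred on its genome-wide level. Limma, whose 59 calls were all among the 889, called none in these 4 lists.

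Developmental, signalling, imprinted and germline genes were counted in the same way, with shares again beside 0.132% of all tiles. Of 2177 tiles at developmental transcription factor genes 3 gained, at Zic5 (23.5 points), Lhx2 (22.7 points) and Pax7 (15.4 points). Of 303 tiles at Hox genes 1 was called, a loss in intron 1 of Hoxb6 within 5 kb of Hoxb5, at 33.6% and 35.5% against 17% and 11.9%, where the E14.5 difference was -4.06 points. The E18.5 difference of -20.1 points (edgeR adjusted p = 0.0463) was -7.3 points at the 2 of its 10 CpGs with 10 or more reads in every liver. Of 1398 tiles at Wnt pathway genes 2 gained, at the receptor gene Fzd1 (42.9% and 41% against 64.1% and 63.6%) and the ligand gene Wnt3 (31.2% and 31.5% against 51.8% and 51.2%). Of 1153 tiles at SMAD and TGF-beta genes 1 gained, at the co-receptor gene Tgfbr3. Imprinted genes had 3 gains in 981 tiles, each a tile that overlaps an island. They were at Gnas (48.9% and 36.2% against 65.4% and 63%), Grb10 (20.6% and 26.3% against 47.8% and 41.9%) and Cdkn1c (19.1% and 19.2% against 33.9% and 35.5%). The E14.5 differences of these were 2.52, 15.3 and 9.34 points. Of 318 tiles at germline genes 1 gained, at exon 1 of Zfp42, a pluripotency marker, at 35.2% and 32.4% against 47.7% and 57.5%. The shares that gained were 0.138% of tiles at developmental transcription factor genes, 0.143% at Wnt pathway genes, 0.0867% at SMAD and TGF-beta genes, 0.306% at imprinted genes and 0.314% at germline genes, each on 3 tiles or fewer. The median difference of the 12 lists was 0.403 to 2.69 points, beside 2.05 for all tiles.

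Bai2, an adhesion receptor gene, had 2 gains in 42 tiles. The larger, around exon 5 on chromosome 4 (129684001 to 129685000), was at 31.9% and 39.3% in the wild types and 71.2% and 60.9% in the mutants (edgeR adjusted p = 8.24e-09). The interval between Smad3 and Smad6, which encode an activating and an inhibitory SMAD, had 2 gains in 118 tiles, the larger at 34.2% and 32.7% against 61.9% and 53.3%. At the TSS of the protease gene Prss50 a difference of 14.8 points passed the test (edgeR adjusted p = 0.00975) but fell short of 15 points, at 21.9% and 18.7% against 37.6% and 32.6%. At Hpd, a gene of tyrosine breakdown, the largest difference was 15.5 points, at 59.1% and 55.3% against 72% and 73.4% (edgeR adjusted p = 0.22). No tile was called at Rlf, Timd2, Upb1, Mgam, Myo5c, Vldlr, Aldh1a7 or Atp2b2, whose largest differences were -1.37 to 12.3 points. Several of these genes had large RNA differences in E14.5 liver without a called tile. The log2 fold change was -6.50 ± 0.32 SE for Hpd (edgeR adjusted p = 7.54e-07), -1.88 ± 0.11 for Upb1, which takes part in pyrimidine breakdown, and 1.80 ± 0.13 for the glucosidase gene Mgam.

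RNA of E14.5 liver was set beside the E18.5 tiles. In bulk samples fewer cells of a type and less RNA per cell cannot be told apart. Of 282 genes with a called tile within 2.5 kb of the start of any annotated transcript, 116 had enough RNA to be tested, and 10 passed (edgeR quasi-likelihood test, adjusted p under 0.05), all with less RNA in the mutants. That is 8.62% of them, against 1.39% of all 14183 genes, of which 99 were higher and 98 lower. With the replicate number as a block 12 passed, again all lower and now with Amn and Tbxas1, against 3.24% of all genes. DESeq2 called 11 of 107 genes (10.3%), of which 1 was higher, against 1.86% of all 13857 genes. The median log2 fold change of the 114 tested genes near a gain was -0.03, and 49 of the 114 were above 0 (43.0%, against 49.4% of all genes).

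The apolipoprotein gene Apoc1 had 192, 145 and 155 CPM in the wild types and 44.2, 52.7 and 41.5 CPM in the mutants, without overlap (log2 fold change -1.83 ± 0.11 SE, edgeR adjusted p = 3.75e-06). The tile at its exons 1 to 3 on chromosome 7 (20277001 to 20278000), part of which is printed above, was at 62.1% and 50.3% in the wild types and 82.2% and 82.2% in the mutants in E18.5 liver, and 29.1 points higher in mutant E14.5 livers. Apoe, within 5 kb of that tile, had a log2 fold change of 0.42 (edgeR adjusted p = 0.0334), in the other direction. The zinc finger gene Zfp783 had 9.84, 9.65 and 7.51 CPM in the wild types and 3.34, 2.67 and 2.46 CPM in the mutants. An island tile within 2.5 kb of one of its annotated starts was at 33.2% and 34.8% against 60.1% and 62.8%. That tile overlaps no annotated gene, and the nearest protein-coding TSS, 10.9 kb away, is that of Zfp956. Trfr2, the gene of transferrin receptor 2, an iron sensor, had 100.1, 108 and 100.1 CPM in the wild types and 75.8, 63.2 and 62.9 CPM in the mutants. Its tile at exons 1 to 2 was at 3.9% and 6.85% against 25.9% and 16.3%, little methylated in the wild types. Aqp9, the gene of a glycerol channel of hepatocytes, had 22.9, 18.6 and 22.4 CPM in the wild types and 12.4, 10.2 and 12.6 CPM in the mutants, and a tile at 18.9% and 29.4% against 47.1% and 38.1%. In these genes neither RNA nor methylation overlapped between the genotypes. They were chosen by both tests, so this is a description.

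The other 6 of the 10 had log2 fold changes from -1.66 to -0.64. They were Dnajb3, a co-chaperone gene that lies within introns of Ugt1a genes, Crispld2, the gene of a secreted protein, Noxa1, which encodes an activator of NADPH oxidase, the Schlafen gene Slfn9, Tlcd2 and Ankrd43. The tile of Crispld2 lies near an annotated transcript start of the gene, 10.9 kb downstream of the nearest protein-coding TSS. The tiles of the 6 genes differed by 16.7 to 24.3 points. That of Slfn9 had the widest gap between mutants, at 44% and 67.9%.

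**Figure D5:**
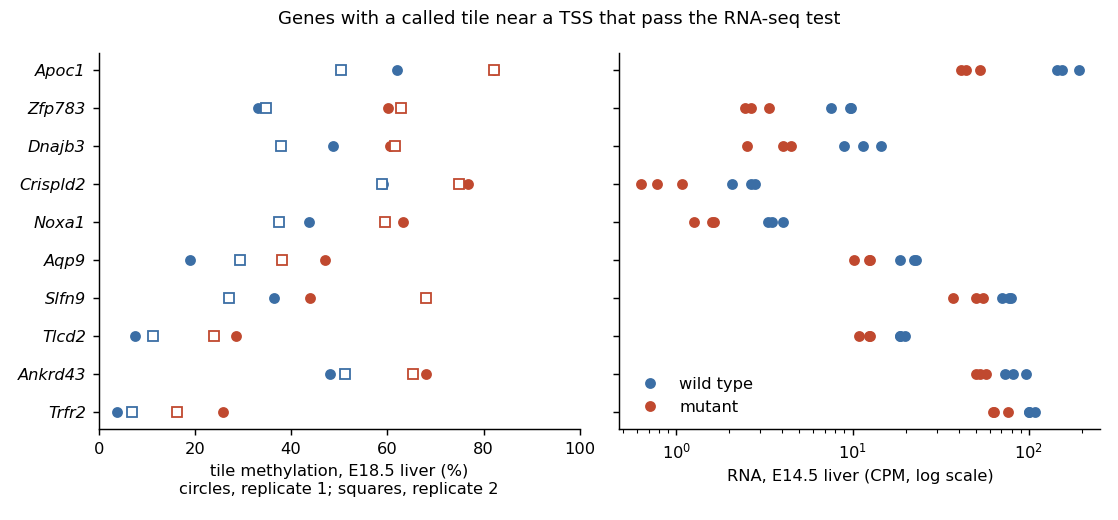
The 10 genes with a called tile within 2.5 kb of any annotated transcript start that passed the RNA-seq test. Left, methylation (percent) of the tile in each E18.5 liver (circles replicate 1, squares replicate 2); right, RNA of the 6 E14.5 livers in CPM on a log axis; blue is wild type and red mutant. For each gene both mutants are higher in methylation and all 3 mutants lower in RNA.

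Letters of known binding motifs were counted on both strands of the tiles. GGGCGG (SP1 and KLF factors) was in 45.8% of gaining tiles and 18.8% of all tiles, and CCGGAAG (ETS factors) in 11.1% and 5.91%. Both contain a CpG, and no motif searched lies within another. TGACTCA (AP-1) was in 12.5% and 16.6%, AGATAA, bound by factors of the GATA family, in 37.2% and 41.1%, and TGTTTAC (FOXA) in 11.7% and 13.5%. The others were CAAAGTC (a part of the HNF4A motif) at 15.7% and 15%, TTGCAAT (CEBP) at 8.21% and 8.16%, CACCC (KLF1) at 91.9% and 87.5%, and CAGCTG (an E-box) at 45.2% and 41.8%. A range of density and wild-type level (16 to 40 CpGs, 10 to 50% in E14.5 liver) was taken next. Density was not matched within it, as the share called was 0.855% with 16 to 20 CpGs and 4% with 31 to 40. The range held 436 gains in 27356 tiles. There the shares of gaining tiles and of all tiles were 52.1% and 37.8% for SP1 and KLF factors, 13.8% and 9.91% for ETS factors, 11.9% and 16.8% for AP-1, 35.3% and 40.8% for the GATA family and 10.6% and 12.6% for FOXA. They were 15.1% and 15.1% for HNF4A, 9.17% and 7.32% for CEBP, 93.8% and 93% for KLF1 and 48.2% and 47.9% for the E-box. These shares are a description, with no test.

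Cell content was looked at through methylation within 500 bp of the TSSs of 49 marker genes of 8 cell types. Hepatocyte markers averaged 59.5% and 61.2% in wild types and 61.7% and 60.5% in mutants. Erythroid markers averaged 27.4% and 32.5% against 37% and 29.9%. In both lists the genotypes overlapped. Both mutants lay above both wild types on average in the neutrophil, macrophage and cardiac muscle lists, the last of cells that liver should lack, at 50.8% and 50.4% against 60.3% and 53.7%. Of all the markers 14 had both mutants above and 2 both below, where both mutants were above at 26.4% and below at 11.3% of the tiles with a TSS at their centre. The part of cell content in the differences was not tested.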

How the data were processed

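Whole-genome bisulphite sequencing gave 2 libraries for each genotype and stage, and RNA-seq of E14.5 liver gave 3 libraries for each genotype. Per the labels and the study's methods, the authors aligned paired-end bisulphite reads with Bismark and Bowtie2 to mm9 carrying FVB substitutions and the lambda and transgene sequences, removed duplicates and merged the strands. They deposited counts of unconverted and converted reads for each CpG, and a rounded percent that was not used. For RNA they deposited counts per gene from TopHat and HTSeq, 12928313 to 14621004 per library. ChIP-seq of H3K4me1 was not analysed here.

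Counts of CpGs with 6 or more reads in all 4 E18.5 livers were summed over tiles of 1 kb with at least 8 such CpGs. Tiles were tested with the edgeR (4.0.16) quasi-likelihood test, with 1 intercept for each library and a genotype term on the methylated counts, Benjamini-Hochberg adjustment over all tiles and a minimum difference of 15 points. The same model with a stage term gave the interactions. RNA counts were tested with edgeR (TMM, filterByExpr), and log2 fold changes are those of that fit. Limma (3.58.1, on the logit with 0.5 added to both counts) and DESeq2 (1.42.0) were alternatives, run in R 4.3.3. Python 3.11.15 (numpy 2.4.6, pandas 2.3.3, scipy 1.17.1, matplotlib 3.10.9) and samtools 1.23.1 did the rest. The edgeR and limma genotype tests on tiles and the edgeR test on RNA were tried on simulated counts. The centring on genome-wide level and the robust empirical Bayes fit were added after seeing the data. Genes and sequences came from GENCODE M1 and the NCBIM37 genome, and islands were found in that genome.

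Same-numbered RNA samples deviated together over 14183 genes (r = 0.125, 0.226 and 0.409), so a fit with the replicate number as a block is given beside the RNA result. Intervals and floors from reads would cover counting error only, and none is given for single livers.

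Named were the 15 regions with the largest gains and 5 with the largest losses without overlap of the genotypes, the 2 widest regions, the 8 largest differences within 1 kb of a TSS, up to 4 genes with a call in each gene list, genes that the study takes up by name, Timd2 from its RNA-seq table, and the 4 largest interactions in each direction. Genes that pass the RNA test, the tiles that pass the interaction test and those at the edge of the rule are named besides, and were chosen after their values were seen. The tiles, gene lists and rule were chosen with earlier results of these data known.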

Additional observations from a re-analysis of the deposited data

Results flagged for a closer look

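The tile near Wdr63 differed between the livers of the 2 stages by the interaction test, with a difference of differences of -22.8 points (edgeR adjusted p = 0.007). In E18.5 liver the mutants were lower, at 76.1% and 85.0% against 97.1% and 94.3%, and in E14.5 liver they were higher, at 94.7% and 97.7% against 90.8% and 86.9%. The E18.5 mutants had 9 and 16.5 reads per CpG there, and with E14.5 counts thinned to the depth of the E18.5 livers no tile passed.

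Against E10.5 embryos the tile at exon 1 of Tmem69, a gene of a transmembrane protein, had a difference of differences of -18.9 points (edgeR adjusted p = 1.21e-07). In E18.5 liver wild-type 1 stood alone at 13.8%, with the other livers at 1.44% to 1.87%, and the E10.5 embryos were at 0% and 0% in wild types and 6.78% and 16.9% in mutants.

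The tile near Fzd9, a Wnt receptor gene, had a difference of differences of -31.7 points against E10.5 embryos (edgeR adjusted p = 0.0459). It was higher in mutants of both datasets, at 74.7% and 73.2% against 63.2% and 63.4% in E18.5 liver and at 65.1% and 71.4% against 21.5% and 30.7% in E10.5 embryos. For both tiles the E10.5 samples are whole male embryos, so stage, tissue and sex cannot be told apart.

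Chromosome X was outside the main measurement. Fitted together with the autosomes, 9 of its 15813 tiles were called (0.0569%), all as gains in the mutants, beside 0.132% of the autosomal tiles fitted alone, where all livers are labelled female.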

How the results depend on the processing

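Among called tiles the excess of gains over losses held under every alternative run. It did not hold at an unadjusted p under 0.05 (edgeR) with each liver centred on its genome-wide level. There 22296 tiles were higher and 23694 lower in the mutants, against 46568 and 4001 in the main fit. Over the 4 fits that each leave out 1 liver, gains ran from 121 to 6308 and losses from 1 to 134, and the genome-wide difference from -0.0672 to 3.92 points, negative without mutant 1. Tiles of 2 kb gave 505 gains and 10 losses, a minimum of 10 points gave 33 losses, a minimum of 20 points gave 445 gains and 9 losses, limma gave 59 and 0 (45324 tiles at an unadjusted p under 0.05), and centring on the genome-wide level gave 473 and 64. The cause was not tested beyond what each alternative changes by its construction. Coverage of 10 reads, 5 or 12 CpGs, tiles of 500 bp, chromosome X and robust empirical Bayes kept gains between 766 and 936. Of the gaining tiles called at over 20 points, 428 were higher in both E14.5 mutants. The interaction with E14.5 liver gave 0 tiles with thinned counts (20564 at an unadjusted p under 0.05), 2 at over 10 points and 2 to 6 on leaving out a liver. Genes with a call within 10 kb of a TSS gave 16 RNA calls, 3 of them higher (6.9%, against 1.39% of all genes). No filter on low counts gave 15 (7.08% against 2.42%) and DESeq2 11 (10.3% against 1.86%), each with 1 higher. Leaving out an RNA sample gave 7 to 10 (5.83% to 8.33%, against 0.459% to 1.56% of all genes).

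E18.5 livers that share a replicate number did not deviate together (r = -0.0117), and with 2 pairs the numbers cannot be called a pairing. With the replicate number as a block 709 gains and 14 losses were called, and the interaction gave 1 tile. The RNA test with the block gave 12 genes.

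Of the 22 named regions, all passed at a coverage of 10 reads and without either mutant, while 17 passed without wild-type 1 and 17 without wild-type 2. Depth was 16.5 to 17.0 reads per CpG with 2 livers for each genotype, and changes under 15 points were not called whatever their p.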

Other observations

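On chromosome X the most clearly called gain lay 16.1 kb upstream of A830080D01Rik (155948001 to 155949000), at 48.7% and 51.2% in the wild types and 73.8% and 72.8% in the mutants (edgeR adjusted p = 0.000167). It was 18.2 points higher in mutant E14.5 livers, of which 1 of each genotype was male, and 11.7 points higher in male mutant E10.5 embryos. A tile in intron 1 of Gpc3, which encodes a proteoglycan of fetal liver, was at 46.7% and 49.7% against 75.3% and 64.5%. Its difference in E14.5 liver was -0.994 points.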
